A study of Mus musculus with 3 samples.

Results

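Liver sinusoidal endothelial cells were selected on the summed counts, in 2 single-cell RNA-seq libraries of mouse liver, of the unique molecular identifiers (UMIs, each standing for 1 captured RNA molecule) of 7 genes, Ptprb, Oit3, Gpr182, Clec4g, Bmp2, Kdr and Stab2. A cell was taken if it had 200 to 4000 genes, at most 25% of its UMIs from mitochondrial genes, at least 6 UMIs of the 7 genes together with at least 3 of them detected, at most 1 Vwf UMI, at most 2 UMIs of the Kupffer cell genes Clec4f and Vsig4, and no UMI of Cd3e, Cd79a or Siglech. Of 52335 cells in the 2 libraries, 42971 passed the limits on genes and mitochondrial UMIs, and 2931 of these met the whole rule. They are called sinusoidal cells below.

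The study asked how Kupffer cell death relates to glucose metabolism in steatotic liver disease, and captured liver cells from mice of the C57BL/6 J background with the BD Rhapsody system after collagenase perfusion and a slow spin whose supernatant was kept. The HFHC pool mixes wild-type (WT) with Chi3l1-/- (Chil1-/-) mice, all of which ate food rich in fat and cholesterol (HFHC) for 16 weeks. Its cells carry no genotype in the tables used here, so the genotypes were not compared. The other library is titled MCD, its table header reads APAP0h and the deposited table is named WT, while the labels give no genotype. If that name holds, wild-type mice alone stand against a pool of mixed genotype, which adds to what the comparison cannot separate. It is called the NCD library because the study describes single-cell capture from wild-type mice given normal chow (NCD) or HFHC food for 16 weeks. The NCD cell count that the study gives after filtering is close to the number kept here. Its HFHC counts, for wild-type and Chi3l1-/- mice, are together well below the 19625 cells kept here in the pool. The study also describes leaving out cells of multiplexed captures, which was not done here beyond the gene limit. The study also used a diet named MCD, for which it describes no single-cell capture. The labels alone do not settle which diet these mice had. The number of animals is not given in the sources used here. With 1 library on each side, the diet cannot be told apart from the capture or the library, no test between them was possible, and intervals cover counting error only.

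Sinusoidal endothelium lines the capillaries of the liver lobule. Its cells are pierced by open pores called fenestrae, lack an ordinary basement membrane, and clear waste molecules and immune complexes from blood through scavenger receptors. They also set the zones of the lobule, since cells near the central vein secrete Wnt ligands and R-spondin, while cells near the portal tract express Notch ligands and ephrins. In steatotic disease, loss of fenestrae and gain of ordinary capillary features are known as capillarization.

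The NCD library held 2361 sinusoidal cells, or 10.1% (95% CI 9.73 to 10.5%) of 23346 kept cells. The HFHC pool held 570, or 2.90% (2.67 to 3.15%) of 19625. Intervals on shares are exact binomial. Cells with over 3% of UMIs from hepatocyte markers numbered 6767 in the NCD library, against 10799 in the pool, and cells with at least 6 UMIs of neutrophil genes numbered 2894 and 313, so the make-up of the 2 captures differed and a share of kept cells is not a number of cells per liver. The median sinusoidal cell had 2030 UMIs and 1162 genes in the NCD library and 5574 UMIs and 2302 genes in the pool, with median mitochondrial shares of 9.95% and 7.65%. When kept cells of at least 1000 UMIs were each thinned to 1000, the rule was met by 14.1% in the NCD library, against 4.48% in the pool. No cell index was shared between the sinusoidal cells of the 2 libraries, and 507 were shared among all kept cells, from which nothing is read.

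The rule left few cells near its edges. Cells with exactly 6 UMIs of the 7 genes numbered 31 in the NCD library, against 8 in the pool, and cells with exactly 5, just outside, numbered 19 and 14. The median sinusoidal cell had 44.0 such UMIs in the NCD library, against 87.0 in the pool. All 7 genes were detected in 66.7% and 82.1% of the cells. Markers of other cell types removed 434 NCD cells and 139 cells of the pool that had enough UMIs of the 7 genes. Of these, 252 and 105 had a UMI of Cd3e, Cd79a or Siglech, 185 and 21 had over 2 UMIs of Clec4f and Vsig4, and 21 and 15 had over 1 Vwf UMI, and a cell could fail in more than 1 way. The limit of 4000 genes left out 1 further cell in the NCD library, against 36 in the pool that met the rest of the rule.

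Several genes outside the rule that mark sinusoidal endothelium were present at high levels in both libraries. Stab1, the scavenger receptor related to Stab2, gave 9038 UMIs in the NCD library, 1655 CPM (UMIs of the gene for every 1000000 UMIs summed over the class in that library; exact 95% Poisson interval 1621 to 1690), and 3777 UMIs in the pool, 1113 CPM (1078 to 1149). F8, which encodes coagulation factor VIII, gave 901 CPM in the NCD library and 1395 CPM in the pool. Gata4, the transcription factor that sustains sinusoidal rather than continuous endothelium, gave 818 and 471 CPM. All 3 genes stood far above their levels in B cells, which should lack them and so show the free RNA of each library. Stab1 in B cells was 14.6 CPM in the NCD library and 5.81 CPM in the pool, F8 was 1.62 and 2.26 CPM, and Gata4 stayed under 5 CPM in both. Not every gene listed as a sinusoidal marker was high. Sele gave 4 and 8 UMIs in sinusoidal cells, and Cd209b gave 14.3 and 9.14 CPM. Tfec gave 53.3 and 49.2 CPM there, against 85.2 and 87.3 CPM in Kupffer cells. Clec1b gave 158 and 173 CPM, against 318 and 527 CPM in Kupffer cells, and Fcna was also higher in Kupffer cells.

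The share of cells with a UMI gave the same contrast once every cell of at least 1000 UMIs was thinned to 1000, which left 1951 NCD and 559 HFHC sinusoidal cells. Stab1 was detected in 74.7% and 62.4% of these sinusoidal cells, and in 0.989% and 0.714% of B cells. F8 was detected in 54.8% and 65.1% of sinusoidal cells, against 0.110% and 0.119% of B cells. Lyve1, the hyaluronan receptor, was detected in 41.0% and 30.8%, against 0.220% of NCD B cells and none of the thinned B cells of the pool. Before thinning, the median sinusoidal cell had 2030 and 5574 UMIs and the median B cell 1396 and 2717. Without thinning, Stab1 was detected in 88.1% of NCD sinusoidal cells. Fcgr2b, the Fc receptor that takes up immune complexes and that B cells also use, was found in 14.9% and 18.3% of B cells, and in 92.4% and 87.7% of sinusoidal cells.

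Markers of other vessels were uneven in the same cells. Vwf was limited by the rule. Cd34, a surface protein of continuous capillaries, gave 26.2 CPM in both libraries. The lymphatic markers Pdpn and Mmrn1 had no UMI in either library, and Ccl21a had 1 UMI in the NCD library and none in the pool. Lyve1 and Flt4, which lymphatic vessels share with sinusoids, were high. Of the other lymphatic list members, Reln, also a stellate marker, gave 63.4 and 14.7 CPM, and 17 and 2 UMIs in the cells with little RNA of hepatocytes, stellate cells and neutrophils. Prox1, a factor also of hepatocytes, gave 11.2 and 53.0 CPM, and 131 and 175 CPM in hepatocytes. Mgp, a matrix protein of larger vessels, had no UMI. Other large vessel markers were present, with Ly6a at 875 and 776 CPM, Bgn, a matrix proteoglycan, at 451 and 612 CPM, and Sox17, an arterial transcription factor, at 163 and 80.4 CPM. Ackr1, a chemokine-binding receptor of venules, gave 70.9 and 45.7 CPM.

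**Figure D1:**
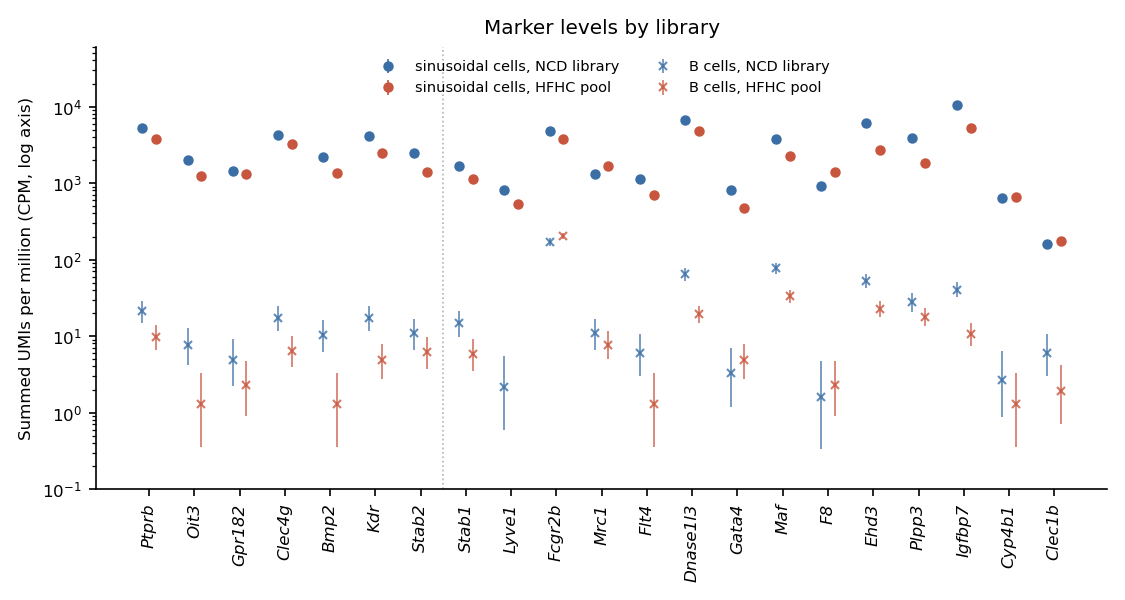
Levels of the 7 rule genes (left of the dotted line) and of 14 genes outside the rule in sinusoidal cells (circles) and B cells (crosses) of the NCD library (blue) and the HFHC pool (red), in CPM on a log axis with exact 95% Poisson intervals. Sinusoidal cells lie at least 10-fold above B cells for every gene drawn. B cells were limited to at most 2 UMIs of the 7 rule genes. Lyve1 in B cells of the pool had no UMI and is not drawn.

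The scavenging receptors divided into those shared with Kupffer cells, the resident macrophages that clear the same blood, and those that were not. Stab2, which is part of the rule and takes up hyaluronan, gave 2488 CPM in sinusoidal cells and 147 CPM in Kupffer cells of the NCD library, and 1380 and 83.5 CPM in the pool. Outside the rule, Fcgr2b gave 4740 and 19.6 CPM in the NCD library and 3715 and 15 CPM in the pool. Lyve1 gave 800 and 13.2 CPM in the NCD library and 536 and 1.07 CPM in the pool. Fcgr2b and Lyve1 were thus far higher in sinusoidal cells in both libraries, and Stab2, having chosen the cells, is given as a description.

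Mrc1, the mannose receptor, was closer between the cell types, at 1324 CPM in sinusoidal and 680 CPM in Kupffer cells of the NCD library and 1650 and 881 CPM in the pool. Cd36, which takes up oxidised lipoprotein and fatty acids, gave 1156 and 328 CPM in the NCD library and 1759 and 574 CPM in the pool. Msr1, a class A scavenger receptor, lay the other way, at 410 and 805 CPM in the NCD library and 319 and 769 CPM in the pool. Lrp1, which clears chylomicron remnants, was mostly in Kupffer cells, with 10.1 CPM in sinusoidal cells and 287 CPM in Kupffer cells of the NCD library and 13.9 and 541 CPM in the pool. Colec12, a collectin, gave 13.9 and 21.5 CPM in the NCD library and 8.25 and 114 CPM in the pool. The Kupffer class held 2011 cells in the NCD library, against 229 in the pool, and each order given here was the same in both libraries.

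**Figure D2:**
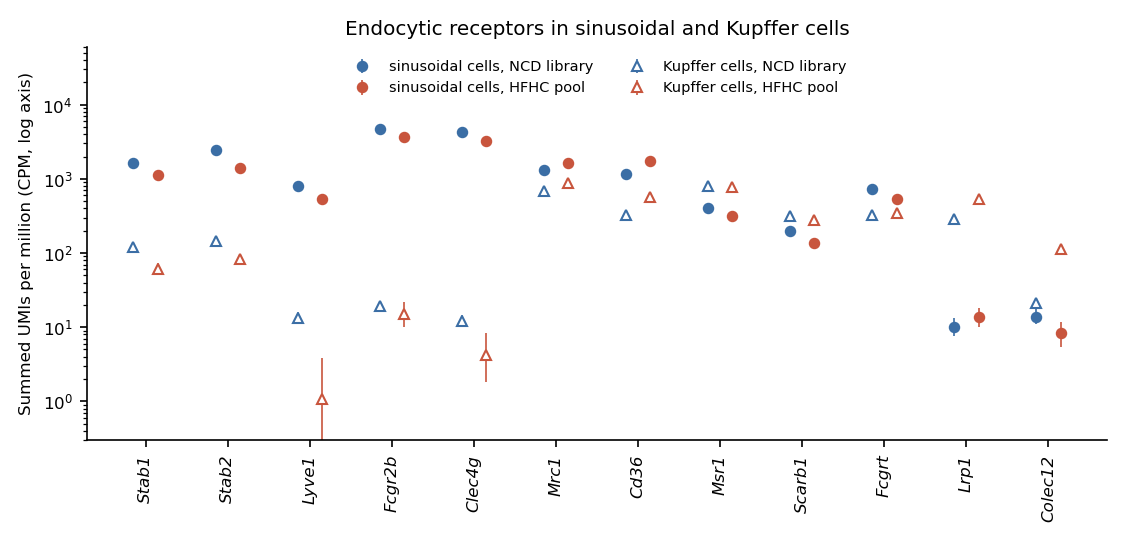
Levels of 12 endocytic receptors in sinusoidal cells (circles) and Kupffer cells (triangles) of the NCD library (blue) and the HFHC pool (red), in CPM on a log axis with exact 95% Poisson intervals. Stab1, Lyve1 and Fcgr2b lie over 10-fold higher in sinusoidal cells, as do Stab2 and Clec4g, which chose those cells, while Msr1, Scarb1, Lrp1 and Colec12 lie higher in Kupffer cells.

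Position in the lobule was read within each library, so library and diet were held constant. Wnt2, a ligand made next to the central vein, was detected in 249 (12.8%) of the 1951 thinned NCD cells and in 82 (14.7%) of the 559 thinned cells of the pool. Dll4 or Efnb2, the Notch ligand and the ephrin of the portal side, was detected in 527 cells (27.0%, 95% CI 25.1 to 29.0%) and 93 cells (16.6%), 1 library each, so the shares are not compared. In B cells, Wnt2 was detected in 0.220% and none, Dll4 in 0.110% and none, and Efnb2 in 0.330% and none. Neither anchor was detected in 62.2% and 70.5% of sinusoidal cells, which at 1000 UMIs says little about where those cells lay.

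In the NCD library a smaller share of the cells with Wnt2 than of those without it had the portal anchor. Of its cells with a Wnt2 UMI, 15.3% (upper bound 20.3%) also had Dll4 or Efnb2, against 28.7% (lower bound 26.6%) of cells without. In the pool the shares were 12.2% and 17.4%, and their intervals overlapped.

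Other pericentral genes were higher in cells with a Wnt2 UMI in both libraries. Rspo3, the R-spondin that strengthens Wnt signalling, was higher by 2.45 on the log2 scale (counting interval 1.94 to 2.94) in the NCD library and by 2.07 in the pool. Wnt9b, the other central ligand, was higher by 1.51 and 2.73, and Kit, the stem cell factor receptor, by 1.02 and 1.20. Thbd, the thrombin receptor thrombomodulin, was higher by 1.07 and 1.13, and Cdh13, a cadherin, by 0.83 and 1.01. All 5 pericentral genes other than the anchor thus had a positive ratio in each library, with a median of 1.07 in NCD cells and 1.20 in the pool. Over all genes tested, 1.12% (NCD) and 3.50% (pool) differed at least 2-fold in either direction.

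All 7 periportal genes had ratios below 0 in cells with a Wnt2 UMI of the NCD library, where the interval of Efnb1 (-0.46) reached above 0. In the pool 3 of the 7, Msr1, Ntn4 and Adam23, had intervals below 0. Msr1 had a log2 ratio of -1.30 in the first and -1.25 in the second. Ntn4, a netrin of the basement membrane, had -1.17 and -0.62. Efnb2 had -1.15 and Dll4 -0.90 in the NCD library, against -0.07 and -0.13 in the pool, where Ltbp4 had -0.17 and Efnb1 0.19. The median of the 7 periportal genes was -0.90 in NCD cells and -0.17 in the pool, or -0.69 in the pool without thinning.

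The opposite anchor gave ratios of mostly opposite sign. In cells with Dll4 or Efnb2, Msr1 was higher by 0.88 (NCD) and 1.01 (pool), Ntn4 by 0.86 and 0.79, and Efnb1 by 0.64 and 0.40. Rspo3 had log2 ratios of -1.88 and -2.24, and Wnt2 of -1.09 and -0.64. Wnt9b had -1.77 in NCD cells and 0.87 in the pool, where its interval reached both sides of 0. So did the intervals of Wnt2 (-1.87 to 0.19), Efnb1 (-0.68 to 1.22), Kit (-1.19 to 0.33) and Thbd (-2.16 to 0.58) in the pool, and that of Thbd, at -0.19, in the NCD library. Genes at least 2-fold different in either direction made up 0.503% of those tested in the NCD library, against 2.67% in the pool.

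Genes often taken as markers of all sinusoidal cells were also compared by the Wnt2 anchor. Stab2 had log2 ratios of 0.14 (0.02 to 0.26) and 0.40 (0.14 to 0.65), Stab1 of 0.27 and 0.40, and Lyve1 of -0.05 and 0.35. Bmp2, a rule gene and an iron-regulating ligand, had 0.17 (0.04 to 0.29) and 0.67 (0.41 to 0.91). Fabp4, a fatty acid carrier of capillaries, was higher in cells with Wnt2 by 0.65 and 0.62. Ly6a had -0.95 in NCD cells and 0.23 in the pool.

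**Figure D3:**
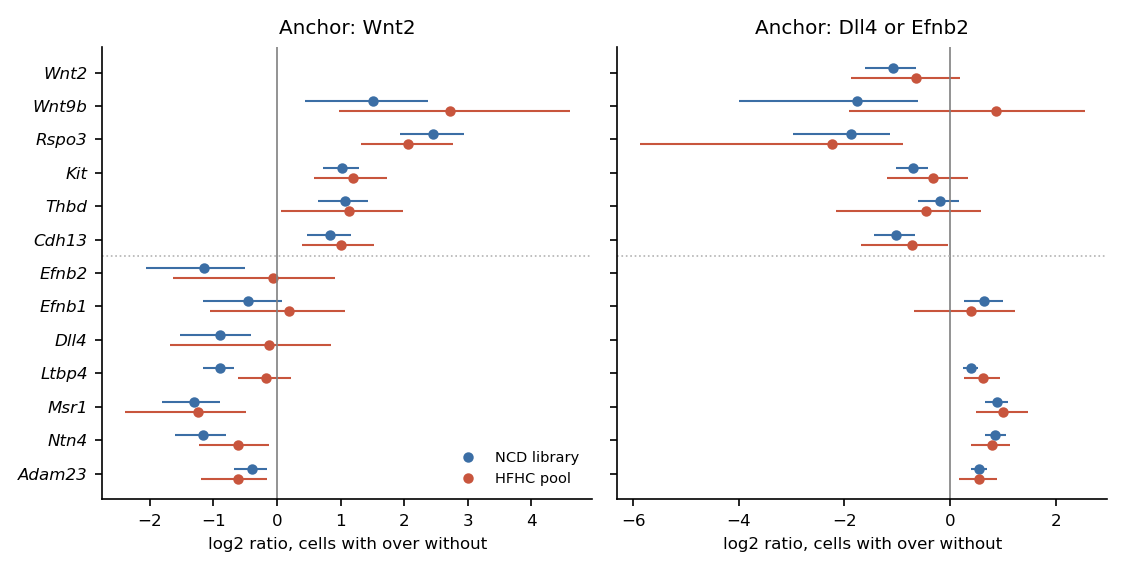
Log2 ratios of summed UMIs of landmark genes in sinusoidal cells with an anchor UMI over cells without, each cell thinned to 1000 UMIs, for Wnt2 (left) and for Dll4 or Efnb2 (right) in the NCD library (blue) and the HFHC pool (red), with 95% counting intervals and pericentral genes above the dotted line. Pericentral genes lie above 0 on the left, and most lie below 0 on the right, with Wnt9b in the pool at 0.87. An anchor's own genes are not drawn on its side.

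Endothelial cells that met the rest of the rule but had at least 2 Vwf UMIs, 19 (NCD) and 14 (pool), gave the closest comparison within each library. Vwf itself chose these cells, and the 7 rule genes chose both groups. Vwf-high endothelium with few UMIs of the 7 genes is thus not among them. Rspo3 was 80.0 CPM in sinusoidal cells and 3418 CPM in Vwf-high cells of the NCD library, and 99.9 and 3824 CPM in the pool, so its log2 ratio was -5.42 in one and -5.26 in the other. Wnt9b was 22.9 and 1053 CPM in the NCD library and 16.5 and 241 CPM in the pool. These Wnt pathway ligands of the central vein were thus far lower in sinusoidal cells. Entpd1, an enzyme that degrades extracellular ATP, had log2 ratios of -4.84 and -4.93, and Ednrb, an endothelin receptor, of -3.85 and -4.67. Bcam, a laminin receptor, had -3.49 and -3.15, and Lhx6, a transcription factor, had -3.64 and -3.01.

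Among the genes higher in sinusoidal cells of both libraries, the hepatocyte genes Pck1, Car3, Mup3, Cat, Apoa2 and Uox were 6 of the 10 that led. Car3 had log2 ratios of 2.63 and 3.89. No Vwf-high cell had over 1% of UMIs from hepatocyte markers, against 8.81% and 43.0% of sinusoidal cells, and the part of this RNA was not tested. Gatm, a creatine synthesis enzyme, had log2 ratios of 2.87 and 2.89. Nostrin, which binds endothelial nitric oxide synthase, gave 197 and 114 CPM in sinusoidal cells and no UMI in Vwf-high cells, so it was at least 3.81-fold higher in the NCD library and at least 2.2-fold higher in the pool, with 3 UMIs as the limit for a count of 0. Col13a1, a transmembrane collagen, gave 310 CPM against 1 UMI (17.3 CPM) in the NCD library, a log2 ratio of 3.17 (1.69 to 9.47). In the pool it gave 204 CPM against no UMI, at least 3.95-fold higher. Plvap, which forms the diaphragms of capillary pores, was lower in sinusoidal cells, at 552 and 324 CPM against 1674 and 1826 CPM. Over all genes tested, 8.28% in NCD cells and 13.8% in the pool were at least 2-fold higher in sinusoidal cells and 20.3% and 16.2% at least 2-fold lower. This split depended on the scaling: by the median of gene ratios, 971 were higher and 811 lower in the NCD library, and 991 and 648 in the pool. With so few Vwf-high cells the counts on that side were small.

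The sinusoidal cells of the HFHC pool were then set beside those of the NCD library. Of the genes tested, 11 of 18 of the immediate-early response were at least 2-fold higher in the pool, 6 of 12 induced by glucocorticoids were at least 2-fold lower, and most genes of a list typical of sinusoidal endothelium had ratios below 0. Cldn5, a tight junction protein, and Abca1, a cholesterol exporter, were higher. Ratios are given on the log2 scale as pool over NCD library, with 1 UMI added to each side, for the 8562 genes with at least 100 UMIs in both together. Of these, 866 (10.1%) were at least 2-fold higher in the pool and 461 (5.38%) at least 2-fold lower, and the median was -0.05. Fewer cells of a type and less RNA of that type cannot be told apart by the summed UMIs of a whole library, but these sums run over sinusoidal cells alone.

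RNA of other cell types also differed between the libraries within the sinusoidal cells. The 18 hepatocyte markers made up 0.383% of their UMIs in the NCD library, against 1.52% in the pool, all 18 had ratios above 0, and 15 were at least 2-fold higher, with Alb at 608 and 3133 CPM. Neutrophil markers made up 0.136% and 0.01%, and all 6 of the 8 that could be tested were at least 2-fold lower. S100a8 gave 453 and 39.2 CPM, and Camp had no UMI in either. Neutrophil markers had median ratios of -3.23 in B, -3.72 in T and -3.66 in Kupffer cells, and -3.84 in hepatocytes. Hepatocyte markers had medians of 0.14 in B, 0.63 in T and -1.11 in Kupffer cells. Stellate cell and fibroblast markers made up 0.101% and 0.0349%, and 5 of 7 tested were at least 2-fold lower, with Dcn at 383 and 83.1 CPM and no marker at 0. Kupffer cell markers made up 0.0444% and 0.0348%, and 3 of 10 tested were at least 2-fold lower, beside 5.38% of all genes. The rule held Clec4f and Vsig4 to at most 2 UMIs a cell, which is stricter in the deeper cells of the pool. The levels of these 2 genes were thus partly set by the rule.

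The same values were computed in the 1785 NCD cells and 259 cells of the pool that had at most 1% of UMIs from hepatocyte markers and at most 2 UMIs each of stellate and neutrophil markers, called low-carryover cells. In these, 282 of 6674 genes (4.23%) were at least 2-fold higher in the pool and 189 (2.83%) at least 2-fold lower, and the median was 0.01. Apart from the list of genes enriched in sinusoidal cells, every list count that follows is to be read against these shares. They were 10.1% higher and 5.38% lower in all sinusoidal cells, and 4.23% and 2.83% in low-carryover cells. The hepatocyte, stellate and neutrophil markers chose these cells, and a limit of 2 UMIs is stricter in the deeper cells of the pool. Values of those 3 lists there are thus a description of the choice. Hepatocyte markers had a median of 0.98 there, against 1.94 in all sinusoidal cells. Kupffer cell markers, under the same limit on Clec4f and Vsig4, went the other way there, at 0.0449% and 0.0618% of UMIs. Of 8 tested, 3 were at least 2-fold higher and 1 at least 2-fold lower, with a median of 0.51. The neutrophil median was -3.31 there over 2 genes, against -3.38. Over all sinusoidal cells it was -1.78 with called doublets removed and -4.54 with a mitochondrial limit of 10%.

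Among genes with at least 10 UMIs in each library, those with the highest ratios included several known from hepatocytes. Sec14l2, a lipid-binding protein, gave 5.49 CPM in the NCD library and 180 CPM in the pool, and Fabp2, a fatty acid carrier, gave 3.66 and 106 CPM. Acsm3, Ttc36, Gm20319, Acot12, Saa1, Osgin1, Fosb and Stard10 followed, with ratios from 4.49 down to 4.08. Of these 10, Fosb and Stard10 had enough UMIs in low-carryover cells for a ratio, 4.27 and 2.83. The part of hepatocyte RNA in the other 8 was not tested.

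Under the same limit of 10 UMIs in each library, the genes with the lowest ratios were mostly those of neutrophils and stellate cells. The neutrophil genes S100a9, S100a8, Cxcr2 and Slfn4 had ratios from -3.85 to -3.21. The mesenchymal genes Hand2, Col3a1 and Col1a2 and the bone morphogenetic protein genes Gdf2 and Bmp5, ligands made by stellate cells, had ratios from -3.13 to -2.91, beside the lower summed stellate markers given above, whose part was not tested. Flrt1, an adhesion protein that binds FGF receptors, gave 81.1 CPM in the NCD library and 11.2 CPM in the pool. Its ratio was -2.82 (-3.38 to -2.38), and -2.59 in low-carryover cells.

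Sinusoidal identity genes outside the rule mostly had ratios below 0. Of 24 genes, 23 could be tested, 19 had ratios below 0, 4 were at least 2-fold lower, beside 5.38% of all genes, and none at least 2-fold higher. The median was -0.56 beside -0.05 over all genes, of which 4557 of 8562 had ratios below 0. Ehd3, a membrane-trafficking protein, gave 6135 and 2698 CPM, with a ratio of -1.18. Igfbp7, a secreted protein that binds insulin-like growth factor, gave 10565 and 5185 CPM, and Plpp3, a lipid phosphatase, gave 3866 and 1803 CPM. Fcna, a ficolin of the complement system, gave 108 and 20.3 CPM, a ratio of -2.39, or -0.75 in low-carryover cells. Kupffer cells held 2804 and 1296 CPM of Fcna and B cells 38.3 and 7.10 CPM, and its ratios were -1.79 in T cells, -2.26 in hepatocytes and -2.31 in neutrophils, and the part of Kupffer cell RNA was not tested. F8 was the highest at 0.63. The median of the list was -0.27 in low-carryover cells, where no gene of it was 2-fold different. Over the fewer genes tested in other classes, it was -1.22 in B, -0.53 in T and -0.59 in Kupffer cells. It was -0.92 in hepatocytes and -1.11 in neutrophils. In Vwf-high endothelial cells 7 of 9 genes had ratios above 0, with a median of 0.96.

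**Figure D4:**
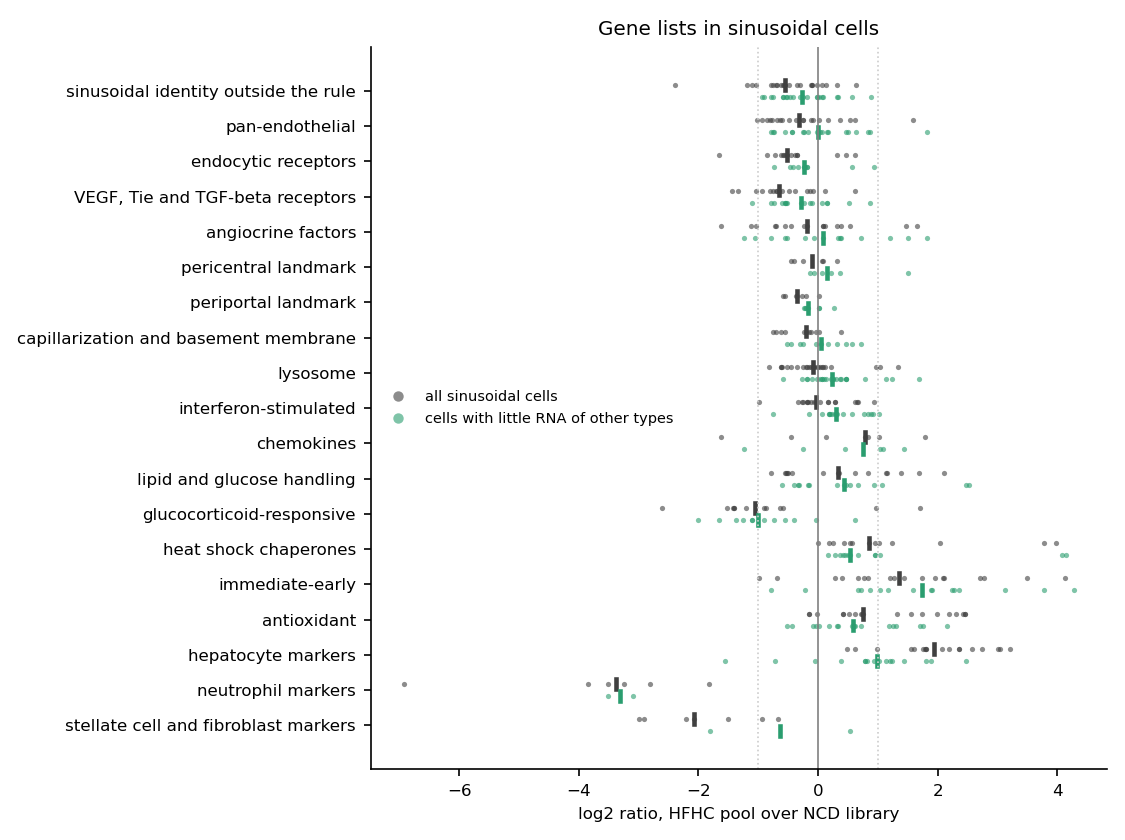
Log2 ratios, HFHC pool over NCD library, for every tested gene (points) of 19 gene lists and the list median (bars), in all sinusoidal cells (grey) and in low-carryover cells (green), with dotted lines at 2-fold. Immediate-early genes lie to the right with a median of 1.35, and glucocorticoid-responsive genes to the left with a median of -1.05. Hepatocyte, neutrophil and stellate markers differ most among the grey points. In green their medians are 0.98, -3.31 and -0.63, but these lists chose the green cells.

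The transcription factors, pore genes and Notch genes had medians below 0. Of 23 endothelial transcription factor genes, 16 had ratios below 0 and 1 was at least 2-fold lower, a share no higher than the 5.38% of all genes, with a median of -0.37, or -0.13 in low-carryover cells. That gene was Sox17, with -1.01, while Gata4 had -0.79 and Maf, a factor of sinusoidal maturation, had -0.76. Of 10 genes of fenestrae and caveolae, 8 could be tested, 1 was at least 2-fold lower and the median was -0.27, or -0.17 in low-carryover cells. Of 11 Notch pathway genes, 7 could be tested, all 7 had ratios below 0, none was 2-fold different and the median was -0.59, or -0.28 in low-carryover cells. Of 13 adhesion genes 10 could be tested and of 11 coagulation genes 5, none was 2-fold different, and the medians were -0.35 and -0.14, or -0.02 and 0.03 in low-carryover cells. The 7 rule genes, which chose the cells, had a median of -0.69, from which nothing is read.

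The endocytic receptors differed in both directions. Of 15, 12 had ratios below 0, and none was at least 2-fold higher. At least 2-fold lower was 1, with -1.66, beside 5.38% of all genes. The median was -0.52, and -0.24 in low-carryover cells, where none of the 11 tested was 2-fold different. Stab1 had -0.57 (-0.63 to -0.52) and Fcgr2b -0.35, while Mrc1 had 0.32 (0.27 to 0.37) and Cd36 0.61 (0.55 to 0.66). In Kupffer cells Mrc1 had 0.37 and Cd36 0.81, so neither reached 2-fold in either cell type.

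Receptors for endothelial growth and tone were lower at the median. Of 18 genes of the VEGF, Tie and TGF-beta families and related receptors, 17 could be tested, 15 had ratios below 0, 3 were at least 2-fold lower, beside 5.38% of all genes, and none at least 2-fold higher, with a median of -0.66. In low-carryover cells 1 of 17 was at least 2-fold lower and the median was -0.29. S1pr1, the receptor for sphingosine 1-phosphate that stabilises vessels, gave 369 and 146 CPM, a ratio of -1.34. Nrp1, the VEGF co-receptor, had -1.04. Ednrb gave 78.8 and 28.9 CPM, a ratio of -1.44, but 0.07 in low-carryover cells. Eng, the endoglin co-receptor, lay the other way, at 603 and 929 CPM, a ratio of 0.62.

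Paracrine factors of sinusoidal cells, called angiocrine because they act on hepatocytes and other neighbours, went in both directions. Of 21, 17 could be tested, 2 were at least 2-fold higher and 3 at least 2-fold lower, beside 10.1% and 5.38% of all genes, with a median of -0.19. In low-carryover cells 3 were higher and 2 lower, with a median of 0.08. Igf1, an insulin-like growth factor also made in quantity by hepatocytes, gave 47.3 and 148 CPM, a ratio of 1.65, or 1.21 in low-carryover cells. Dkk3 gave 20.9 and 58.1 CPM, a ratio of 1.47, or 1.82 in low-carryover cells. Cxcl12, the ligand that retains haematopoietic cells, gave 177 and 57.2 CPM, a ratio of -1.62, or -1.24 in low-carryover cells. Nos3, the endothelial nitric oxide synthase, gave 148 and 67.5 CPM, a ratio of -1.12.

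The zonal ligands among them differed little or in either direction. Wnt2 gave 147 CPM (137 to 158) and 157 CPM (144 to 171), and Rspo3 gave 80.0 CPM (72.7 to 87.9) and 99.9 CPM (89.5 to 111), a ratio of 0.32. In low-carryover cells Rspo3 gave 65.6 and 187 CPM, a ratio of 1.51. Dll4 gave 214 and 145 CPM, and Efnb2 gave 143 and 95.5 CPM, with ratios of -0.22 and -0.20 in low-carryover cells. Over all sinusoidal cells, no pericentral or periportal landmark gene differed 2-fold between the libraries, and the medians were -0.09 over 6 pericentral and -0.36 over 7 periportal genes. In low-carryover cells Rspo3 alone was past 2-fold, and the medians were 0.14 and -0.17.

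Features linked to capillarization were not uniformly higher. Of 15 genes of capillaries and basement membrane, 11 could be tested, none was 2-fold different, and the median was -0.21, or 0.05 in low-carryover cells. Col4a1 and Col4a2, the collagen chains of basement membrane, gave ratios of -0.71 and -0.62, and the laminin chain gene Lama4 gave 0.38. Cd34 gave 0.01 with an interval of -0.40 to 0.39. Plvap gave -0.77, or -0.17 in low-carryover cells.

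Junction and pan-endothelial genes were mixed. Of 20 pan-endothelial genes, 1 was at least 2-fold higher and 1 at least 2-fold lower, shares no larger than the 10.1% and 5.38% of all genes, with a median of -0.31, or 0.01 in low-carryover cells. Cldn5, which seals endothelial contacts, gave 857 UMIs and 157 CPM (147 to 168) in the NCD library and 1605 UMIs and 473 CPM (450 to 497) in the pool. Its ratio was 1.59 (1.47 to 1.71), and 1.82 in low-carryover cells. Among thinned cells, 13.3% (NCD) and 36.0% (pool) had a Cldn5 UMI, against none and 0.119% of B cells. Esam, an adhesion molecule of the same contacts, had -1.02, Cdh5, the VE-cadherin gene, had -0.25, and Pecam1 had -0.12.

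The immediate-early genes, which respond within minutes to many stimuli including cell isolation, included many with higher levels in the pool. Of 21, 18 could be tested, 11 were at least 2-fold higher, beside 10.1% of all genes, and none at least 2-fold lower, with a median of 1.35, or 1.74 in low-carryover cells. Fos gave 199 CPM (187 to 211) and 1301 CPM (1263 to 1340), Egr1 gave 112 and 1257 CPM, and Fosb gave 14.1 and 249.6 CPM. Socs3, which restrains cytokine signalling, gave 40.3 and 174 CPM. Klf2, a shear-responsive factor, lay the other way, at 922 and 464 CPM, a ratio of -0.99, while its relative Klf4 had 0.77. The list had medians of 1.1 in B cells, 1.24 in T cells, 0.98 in Kupffer cells and 1.06 in neutrophils, and of -0.17 in hepatocytes, where 5 genes were at least 2-fold higher and 2 at least 2-fold lower. Fos was detected in 48.1% of thinned sinusoidal cells and 47.4% of thinned B cells of the pool, against 13.6% and 13.5% in the NCD library. Egr1 was detected in 47.4% of sinusoidal cells and 17% of B cells of the pool, against 7.69% and 4.73%.

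Some heat shock chaperones were higher as well. Of 13, 5 were at least 2-fold higher, or 3 in low-carryover cells, beside 10.1% and 4.23% of all genes, and none at least 2-fold lower, with a median of 0.85, or 0.54 in low-carryover cells. Hspa1a, an inducible chaperone, gave 13.4 and 184 CPM. The medians were 0.69 in B cells, 0.59 in T cells, 0.28 in Kupffer cells, 0.25 in hepatocytes and 0.72 in neutrophils. The study's methods describe 1 isolation procedure, and any difference in handling between the 2 captures was not tested.

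Several glucocorticoid-responsive genes were lower. Of 13, 12 could be tested, 6 were at least 2-fold lower, beside 5.38% of all genes, and 1 at least 2-fold higher, with a median of -1.05, or -1.01 in low-carryover cells. Tsc22d3, which encodes the anti-inflammatory protein GILZ, gave 141 CPM (132 to 152) and 53.0 CPM (45.6 to 61.4), and Klf9 gave 256 and 95.2 CPM. Per1, which is also a clock gene, gave 52.0 and 8.25 CPM. Cdkn1a, a cell cycle inhibitor, gave 226 and 78.1 CPM, and Mt1, a metallothionein, gave 583 and 252 CPM. Errfi1, a feedback inhibitor of EGF receptor signalling, was the gene at least 2-fold higher, with 1.71, or 0.61 in low-carryover cells. The medians were 0.05 in B cells, -0.07 in T cells, -0.75 in Kupffer cells, -0.54 in hepatocytes and 0.27 in neutrophils. Tsc22d3 itself had -1.57 in B cells, -0.66 in T cells and -2.65 in Kupffer cells, and Klf9 had -1.44 in T cells and -3.05 in Kupffer cells.

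Some genes of lipid handling were higher. Of 21 genes of lipid and glucose handling, 16 could be tested, 5 were at least 2-fold higher, beside 10.1% of all genes, and none at least 2-fold lower, with a median of 0.34. In low-carryover cells 3 of 15 were at least 2-fold higher, beside 4.23%, with a median of 0.43. Abca1, which exports cholesterol to apolipoprotein A-I, gave 183 UMIs and 33.5 CPM (28.8 to 38.7) in the NCD library and 489 UMIs and 144 CPM (132 to 157) in the pool. Its ratio was 2.10 (1.86 to 2.36), and 2.47 in low-carryover cells, beside 0.08 in B cells, 0.73 in T cells and 0.54 in Kupffer cells. Abca1 was detected in 2.92% and 10.7% of thinned sinusoidal cells, against 10.8% and 14.9% of B cells, which held 127 and 135 CPM and so give no background for it. It gave 19.0 and 31.7 CPM in T cells and 23.1 and 17.5 CPM in hepatocytes, so the sinusoidal level in the NCD library lay close to these and that in the pool well above them. Abcg1, the partner exporter, had -0.50. Plin2, which coats lipid droplets, gave 52.8 and 171 CPM, a ratio of 1.69, beside 1.22 to 1.25 in B, T and Kupffer cells. Gpihbp1, which anchors lipoprotein lipase to capillaries, had -0.79, and the lipase gene Lpl had 1.14, or 2.52 in low-carryover cells.

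Some antioxidant genes were higher, beside the higher hepatocyte markers. Of 21, 19 could be tested, 9 were at least 2-fold higher, beside 10.1% of all genes, and 3 had ratios below 0. In low-carryover cells 6 of 18 were at least 2-fold higher, beside 4.23%. The list had a median of 0.75, or 0.59 in low-carryover cells, and medians of 0.38, 0.16 and -0.02 in B, T and Kupffer cells. Gpx1, a glutathione peroxidase, gave 259 and 1425 CPM, a ratio of 2.46, or 1.75 in low-carryover cells, beside 0.48 to 0.78 in B, T and Kupffer cells. Fth1, a ferritin chain, had 1.98, or 1.18 in low-carryover cells, and 0.04 to 0.24 in those 3 types. Hepatocytes hold much RNA of these genes, and the part of carried-over RNA was not tested. Ftl1 and Gpx4 were higher in all 4 cell types, with ratios of 2.18 and 2.31 in sinusoidal cells and 1.20 to 2.92 in the others.

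Immune genes of the sinusoidal cells differed by list. Of 21 interferon-stimulated genes, 19 could be tested, none differed 2-fold and the median was -0.03. In low-carryover cells 15 of 17 had ratios above 0, 1 was at least 2-fold higher and the median was 0.30. Of 16 antigen presentation genes, 13 could be tested, none differed 2-fold and the median was -0.17, or 0.04 in low-carryover cells. Of 11 chemokine genes, 7 could be tested, 2 were at least 2-fold higher and 1, Cxcl12, at least 2-fold lower, beside 10.1% and 5.38% of all genes, with a median of 0.78. In low-carryover cells 3 of 6 were higher and 1 lower, beside 4.23% and 2.83%. Cxcl9, a T cell attractant, gave 233 and 398 CPM, with ratios of 0.78 in sinusoidal, 0.87 in T and 0.71 in Kupffer cells. Cxcl10 had 0.83, Ccl5 1.01 and the neutrophil attractant Cxcl1 1.79.

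**Figure D5:**
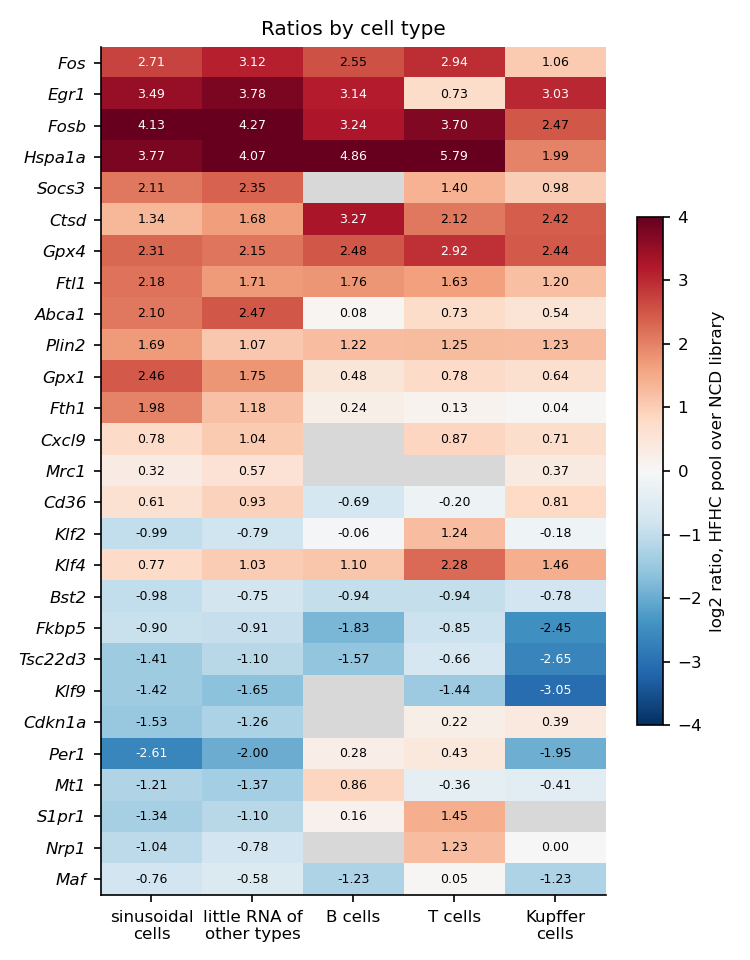
Log2 ratios, HFHC pool over NCD library, for 27 genes (rows) in sinusoidal cells, low-carryover sinusoidal cells, B cells, T cells and Kupffer cells (columns), with the value in each cell and grey where a gene had under 100 UMIs in both libraries together. Fos, Egr1, Fosb and Hspa1a are above 0 in all 5 columns, Abca1 is at 2.10 in sinusoidal cells and 0.08 to 0.73 in the other types, and S1pr1 is at -1.34 in sinusoidal cells and 1.45 in T cells.

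Genes that the sinusoidal cells held at no less than 5-fold the level of B cells, T cells, Kupffer cells, hepatocytes and neutrophils in both libraries were taken as a further list, chosen after the values were seen. It held 467 genes, which made up 16.1% of the UMIs in NCD cells and 11% in the pool. Of these, 5 were at least 2-fold higher in the pool and 78 at least 2-fold lower. In low-carryover cells 11 of 415 were higher and 34 lower. The 5-fold limit bars genes that hepatocytes hold at like levels, and hepatocyte markers were higher in the pool. No stellate class was among the cell types compared, so stellate markers, which were lower in the pool, could enter. The choice of the list thus bears on this split, which is not read against the shares of all genes. The median was -0.47, or -0.21 in low-carryover cells. The highest were Galnt15, a glycosyltransferase, with 18.5 and 56.9 CPM and a ratio of 1.61, then Cldn5, Dkk3, the adhesion protein gene Flrt2 with 1.43, and Shisa9 with 1.08. Plxnd1, a semaphorin receptor that senses flow, had 0.91, and Mecom, a transcription factor, had 0.65.

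Among the lowest of these genes, some are known from stellate cells and some had ratios of like size in low-carryover cells. Bmp10 gave 116 UMIs in the NCD library, against 3 in the pool, 21.2 and 0.884 CPM, a log2 ratio of -4.18 (-6.89 to -3.00). Colec11, a circulating collectin, gave 139 and 30.6 CPM, a ratio of -2.17, or -1.50 in low-carryover cells. Slc12a5, a chloride transporter, gave 430 and 68 UMIs, a ratio of -1.96, or -2.02 in low-carryover cells. Rab3b, a GTPase of vesicle release, gave 67.0 and 17.1 CPM, and Twist1, a transcription factor, gave 70.5 and 17.1 CPM, with ratios of -1.84 and -1.70 in low-carryover cells. Bmp10, Gdf2, Dcn and Col3a1 stood beside summed stellate markers of 0.101% and 0.0349%, whose part was not tested.

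Chil1, the gene deleted in some of the pooled mice, gave 79 UMIs (14.5 CPM) in NCD sinusoidal cells and 1 UMI (0.295 CPM) in those of the pool. It gave 603 CPM in NCD neutrophils and 230 CPM in neutrophils of the pool, and in low-carryover sinusoidal cells it gave 3 UMIs and none. These few UMIs do not check which cells came from which genotype.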

How the data were processed

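Deposited tables of 2 BD Rhapsody libraries were read, in which each value is a count of UMIs per cell and gene, not normalized, made by the authors with the BD Rhapsody WTA Analysis Pipeline 1.10.1 (per the file headers) on GRCm38 with GENCODE vM19. Their methods name Seurat and limits of 200 to 4000 genes and at most 25% mitochondrial UMIs, which were applied here. A table of sample tags was not used.

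Cell classes were set by marker UMIs. UMIs were summed over the cells of a class per library and divided by their total (CPM). Ratios added 1 UMI to each side, over genes with at least 100 UMIs, and a 2-fold difference was the call. Ratios of landmark genes by anchor were also given for genes with fewer UMIs. With 1 library on each side no test was run and no p-value is given. Intervals are exact Poisson or binomial at 95%. Where stated, cells were thinned to 1000 UMIs (seed 42). Doublets were called with Scrublet, which marked 11.5% of the NCD sinusoidal cells and 0.175% of those in the pool; they were kept, and removed as an alternative. Since the caller marked so few in the pool, that removal acts mainly on 1 side. The ratio calculation was tested on simulated data.

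The members, the gene lists and the rule for named genes were chosen with earlier results of these data known. The values of 1 gene of a list are not reported here. Named genes are those of the lists, the 10 highest and 10 lowest ratios with at least 10 UMIs in each library, and the same for Vwf-high cells. Low-carryover cells, thinning before the rule or the ratios, and the genes enriched in sinusoidal cells (15 highest and 15 lowest) were chosen after seeing the data. Python 3.11.15, numpy 2.4.6, pandas 2.3.3, scipy 1.17.1, scanpy 1.11.5 and matplotlib 3.10.9 were used.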

Additional observations from a re-analysis of the deposited data

Results flagged for a closer look

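S1pr1, the sphingosine 1-phosphate receptor, was lower in sinusoidal cells of the HFHC pool, with a log2 ratio of -1.34 to the NCD library, and higher in T cells, with 1.45. It was picked out because the libraries differed at least 2-fold in opposite directions in the 2 cell types, and the difference between the cell types was not tested.

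Hepatocyte genes differed in opposite directions in sinusoidal and Kupffer cells, which was also not tested. Alb had 2.36 in sinusoidal cells and -1.10 in Kupffer cells, Serpina1a had 2.36 and -1.39, Ass1 had 2.74 and -1.11, and Cps1 had 3.04 and -1.66.

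The limit of 4000 genes per cell left out 36 cells of the HFHC pool that met the rest of the rule, against 1 cell of the NCD library. They were picked out because they lie outside the cells compared.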

How the results depend on the processing

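Of 119 comparisons of 21 main results with an alternative, 95 stayed close to the value reported (list medians within 0.5, shares within their interval), 24 moved and none reversed. For counts of genes, differences as large as 1048 beside 866 and 648 beside 916 were also taken as close. The values that moved follow, and the cause was not tested. The share of kept cells meeting the rule was 6.47% (NCD) and 2.40% (pool) with a mitochondrial limit of 10%, 9.50% in the NCD library with at least 10 UMIs of the 7 genes, and 14.1% and 4.48% after thinning to 1000 UMIs. Genes at least 2-fold higher and lower in the pool numbered 282 and 189 in low-carryover cells and 346 and 267 after thinning, where fewer genes were tested, and 1526 and 826 with a limit of 20 UMIs, where more were. The hepatocyte list median was 2.90 without Scrublet doublets and 0.98 in low-carryover cells, which the hepatocyte, stellate and neutrophil lists chose. The neutrophil median was -4.54 with the 10% limit and -1.78 without doublets. The stellate median was -1.14 with the 10% limit, -0.63 in low-carryover cells, -1.32 with cells weighted equally and -0.91 after thinning. Periportal genes with the Wnt2 anchor in the pool had a median of -0.69 without thinning. Against Vwf-high cells, scaling by the median ratio gave 971 higher and 811 lower genes in the NCD library, and a limit of 20 UMIs gave 4144 lower genes there and 3208 in the pool. Ratios of single named genes moved more often, 240 of 313 in low-carryover cells and 146 of 342 with the 10% limit. Without an upper gene limit 122 of 374 moved, and without doublets 91 of 366. With cells weighted equally 110 of 374 moved, and after thinning 110 of 286. At most 19 moved under any other alternative. Of 123 named genes at least 2-fold different, every one with a value kept its direction under each alternative except Ednrb, with 0.07 in low-carryover cells, where 82 had a value and 60 stayed past 2-fold. No paired analysis was possible because there is 1 library on each side, and no replicate could be left out.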

Other observations

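Clock genes differed in both directions between the libraries. Of 15, 8 could be tested in sinusoidal cells, 4 were at least 2-fold higher in the pool and 1, Per1, at least 2-fold lower, beside 10.1% and 5.38% of all genes, with a median of 0.83. In low-carryover cells 1 of 5 was at least 2-fold higher and 1 at least 2-fold lower, with a median of 0.18. Nr1d1, a repressor of the clock, gave 22.2 CPM in the NCD library and 64.5 CPM in the pool, a log2 ratio of 1.54, or 0.97 in low-carryover cells. Arntl, which drives the clock, gave 31.7 and 32.7 CPM. Hlf, a clock-controlled factor also present in hepatocytes, gave 7.88 and 76.0 CPM. The time of day of tissue collection is not given in the sources used here, and its part was not tested.

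Proliferation genes gave few UMIs. Of 22 cell cycle genes, 9 could be tested, 2 were at least 2-fold higher and 1 at least 2-fold lower, beside the same shares, and in low-carryover cells 1 of 6 was higher and none lower. Mki67, a marker of dividing cells, gave 48 UMIs (8.79 CPM) in the NCD library and 64 UMIs (18.9 CPM) in the pool. Ccnd1, a cyclin of the G1 phase, gave 486 and 257 CPM. Of 25 lysosome genes, 2 were at least 2-fold higher, no larger a share than the 10.1% of all genes, and none lower, with a median of -0.08. In low-carryover cells 3 of 24 were at least 2-fold higher, beside 4.23% of all genes, with a median of 0.24. Ctsd, the cathepsin D gene, gave 75.3 and 191 CPM. Its ratio was 1.34 in sinusoidal cells, and 2.12 to 3.27 in B, T and Kupffer cells.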
